A study of Homo sapiens with 12 samples.

Results

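The 39 genes described here build and fire the DNA replication fork and time entry into S phase. They were chosen by name and known role, by a rule that uses no measured value but with earlier results of these data known, and 39 of 39 were found among the 58302 genes of the deposited expression table. The cells were DLD1, an established human colorectal cancer line, at passage 5. One group carried the non-targeting short hairpin shNC and the other carried shNAT10, a hairpin against NAT10, the acetyltransferase that writes N4-acetylcytidine (ac4C) on RNA. From each, 100 µg of total RNA was cut to 100 to 200 nt, and part was precipitated with an antibody against ac4C, with the rest kept as input. Each of the 4 groups (input and precipitate of each hairpin) held 3 libraries, read as 150 bp pairs. The labels gave neither the number of hairpin sequences or clones nor whether replicates were separate cultures, so p-values measure the spread between these libraries, which may be technical. The comparisons below use the 6 input libraries, in FPKM (fragments scaled to gene length and library size), and the authors' list of differential ac4C peaks.

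Before S phase, the origin recognition complex (ORC), CDC6 and CDT1 load the ring-shaped helicase MCM2-7 onto DNA, a step called licensing. At S phase entry CDC45 and the GINS complex join MCM2-7 to make the active helicase, polymerases copy the strands while held by the sliding clamp PCNA, and the single-strand binding protein RPA coats exposed DNA. E2F transcription factors, released when cyclin-dependent kinases inactivate the retinoblastoma protein, switch on most of these genes in late G1, so their RNA is a usual readout of proliferation in colorectal tumours.

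Fragments on genes numbered 2636810 to 2758067 in the shNC inputs and 1224097 to 1303818 in those labelled shNAT10, so the latter had fewer recovered fragments. NAT10 itself stood at FPKM 1.24, 3.95 and 2.89 in shNC, against 0, 28.1 and 31.4 under the shNAT10 label (replicates 1, 2 and 3 in each case, as in every triplet below). Replicates 2 and 3 of the latter were thus above every control, against their label, and the difference did not pass (log2 difference 1.48, SE 1.86, limma adjusted p = 0.754, and a two-sided exact permutation test gave p = 0.4, where 0.1 is the least it can give). Each direction below is that of the label. Of 12 colorectal epithelial markers 8 were found in every input and the other 4 in some, with a summed FPKM of 5307 to 5393 in shNC and 8242 to 8741 in the libraries labelled shNAT10. Most of that sum was KRT8 (3112 to 3774 against 5573 to 5866), while EPCAM lay the other way (226 to 369.7 against 38.3 to 128). The 8 fibroblast and muscle markers summed to 0 to 3.81 in shNC and 9.62 to 76.9 in the libraries labelled shNAT10, where TAGLN was the highest at 68.9 in replicate 1. Their part in the results below was not tested. Of the leukocyte markers 2 of 6, and of the endothelial markers 2 of 4, were above 0, in libraries labelled shNAT10 alone, where the lists summed to at most 2.29 and 1.44. Their defining markers CD3E and PECAM1 were listed at 0 in all 6. Of 4 neural markers 1 was above 0, in 1 shNC library (3.29).

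Many of the members, though not all, held a promoter word that their choice did not use. RefSeq promoter windows (GRCh38.p14, 250 bases before to 50 after the gene start) were at hand for 33 of the 39, and 17 of these (51.5%) held at least 1 E2F site. The site was searched as the 8-base words TTTGGCGC, TTTCCCGC, TTTGCCGC and TTTCGCGC on both strands; TTTGGCGC and the reverse of TTTCGCGC overlap in the MCM6 promoter. By window it was 18 of 43 (41.9%). In the wider list of replication and G1/S genes described further on, it was 17 of 50 genes (34.0%). A word was present in 6.68% of the 6702 genes with a window that were abundant enough to test, in 3.99% of all 27305 genes with one, and in 3.31% of all 35116 windows. A match is a description of the letters, not a measured binding site. The stretches below are the 120 bases just upstream of the gene start in 7 members, 5 of which carry a deposited ac4C peak, 1 (MCM6) of which is the most abundant licensing gene, and 1 of which encodes E2F1 itself. They are written 5′ to 3′ on the strand of the gene, with E2F words of either strand in capitals.
MCM6, chr2:135876444-135876563, minus strand: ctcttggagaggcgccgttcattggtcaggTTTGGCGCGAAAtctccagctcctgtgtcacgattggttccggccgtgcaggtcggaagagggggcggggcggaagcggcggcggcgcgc
MCM7, chr7:100101398-100101517, minus strand: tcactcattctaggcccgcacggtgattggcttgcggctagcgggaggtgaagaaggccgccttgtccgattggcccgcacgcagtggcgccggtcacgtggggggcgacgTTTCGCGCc
CDT1, chr16:88803669-88803788, plus strand: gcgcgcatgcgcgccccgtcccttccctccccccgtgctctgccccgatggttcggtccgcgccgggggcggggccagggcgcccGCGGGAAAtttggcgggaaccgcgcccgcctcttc
POLE, chr12:132687343-132687462, minus strand: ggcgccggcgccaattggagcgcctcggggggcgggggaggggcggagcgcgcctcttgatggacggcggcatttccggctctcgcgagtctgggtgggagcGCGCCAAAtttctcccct
PCNA, chr20:5126623-5126742, minus strand: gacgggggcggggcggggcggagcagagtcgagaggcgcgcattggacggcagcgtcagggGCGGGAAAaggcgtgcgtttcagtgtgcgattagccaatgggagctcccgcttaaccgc
TYMS, chr18:657533-657652, plus strand: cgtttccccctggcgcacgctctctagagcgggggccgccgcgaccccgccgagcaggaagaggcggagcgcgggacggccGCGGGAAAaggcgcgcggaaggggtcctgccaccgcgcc
E2F1, chr20:33686386-33686505, minus strand: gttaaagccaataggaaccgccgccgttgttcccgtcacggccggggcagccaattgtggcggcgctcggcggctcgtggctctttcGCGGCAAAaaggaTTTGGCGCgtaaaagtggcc
In these 7 stretches, which show 120 of the 250 upstream bases searched, the words lie from base -90 in MCM6 to base -9 in MCM7. Beyond the printed bases, words began at -152 and -148 in MCM6 and at -187 in MCM7. Further matches lay just past the start in MCM2, CDC6 and GINS1. The MCM3, GINS2, GINS3, LIG1, POLA1, RFC3 and UHRF1 windows also held a word.

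The replication genes were detected at modest levels and unevenly between replicates. Together they took 0.240%, 0.171% and 0.222% of the fragments of shNC, against 0.0943%, 0.264% and 0.137% under the shNAT10 label. The groups overlapped, since shNAT10 replicate 2 was above every shNC library and the others below. Which genes carried this share changed from library to library. In shNC replicate 1 the most abundant was MCM3 (FPKM 93.9), and in replicates 2 and 3 it was PCNA (67.1 and 77.0). Under the shNAT10 label it was TYMS (72.5), the cyclin gene CCNE2 (95.3) and PCNA (159). The share of cells in S phase and the amount of these RNAs per cell cannot be told apart in such bulk samples.

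Members listed at 0 numbered 10, 9 and 9 in shNC against 16, 17 and 16 under the shNAT10 label. The latter libraries had fewer fragments, and over all genes 8340 to 8682 were above 0 in shNC against 6348 to 8117. Another 5 to 6 members in shNC and 3 to 8 in the libraries labelled shNAT10 rested on 1 to 3 fragments. Well-covered genes also dropped out between replicates of one group. Of the 23 members with at least 100 fragments in 1 shNC library, 10 had at most 3 in another shNC library, as had 54.9% of all such genes. Under the shNAT10 label it was 11 of 17, against 62.7% of all such genes. Above 0 in all 3 libraries were 20 members in shNC and 14 in the libraries labelled shNAT10, and 12 in all 6. Because genes that every cell needs were also absent from single libraries, a 0 is given here as listed and not as absence of the RNA.

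**Figure D1:**
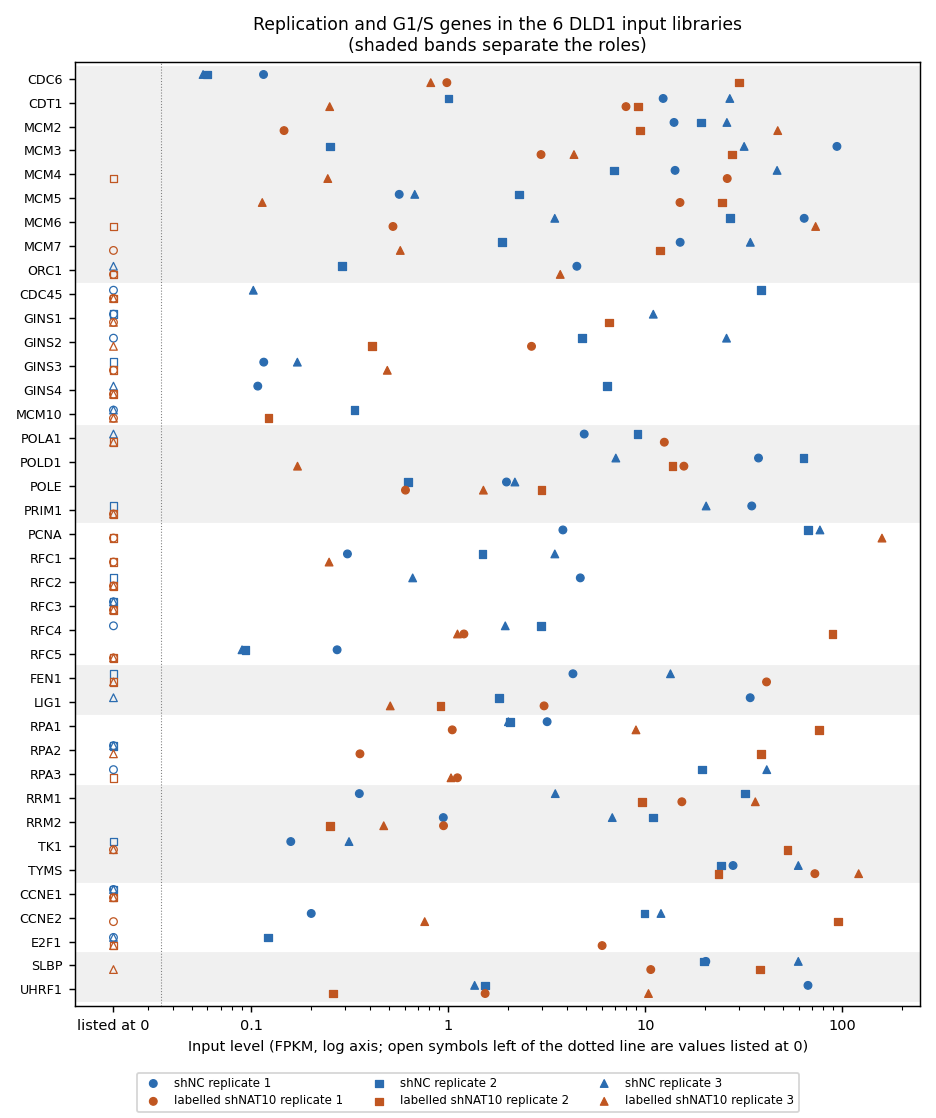
Input level of each of the 39 genes (FPKM, log axis) in 3 shNC libraries (blue) and 3 labelled shNAT10 (orange), ordered by role in shaded bands, with values listed at 0 as open symbols on the left. The symbols of one colour are spread widely for most genes, while the 6 values of TYMS lie between 23.5 and 121.

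In the licensing group, 9 of 9 members passed the filter for testing (an average FPKM, over the 6 inputs, no lower than 1), and none passed the test between the hairpins. The 6 subunits of the MCM2-7 ring are needed in equal number as protein. Their RNA levels per gene length were far apart within each library. In shNC replicate 1 they ran from 0.564 for MCM5 to 93.9 for MCM3, a ratio of 166. In replicate 2 it was MCM3 that was lowest, at 0.250, with MCM6 highest at 26.8 (ratio 107), and in replicate 3 MCM5 was lowest at 0.676 and MCM4 highest at 46.7 (ratio 69.0). The order of the subunits was thus not kept between replicates. Under the shNAT10 label, MCM7 was listed at 0 in replicate 1, MCM4 and MCM6 in replicate 2, and MCM5 was lowest in replicate 3 at 0.114 against 73.2 for MCM6.

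MCM2 was the steadiest subunit in the controls. Its FPKM was 14.0, 19.2 and 26.0 in shNC against 0.147, 9.39 and 47.0 under the shNAT10 label, which lay below, below and above the controls. Its log2 difference was -1.28 (SE 1.72, limma adjusted p = 0.777). MCM6, the most abundant licensing gene, had 64.0, 26.8 and 3.47 against 0.524, 0 and 73.2. The highest and the lowest of its values both came from libraries labelled shNAT10, and its groups overlapped. MCM4, with the largest difference of the group, had 14.2, 6.92 and 46.7 against 26.0, 0 and 0.245. Replicates 2 and 3 of the libraries labelled shNAT10 lay below the controls and replicate 1 lay among them, for a log2 difference of -2.47 (SE 1.82, limma adjusted p = 0.754). MCM7 had 15.03, 1.87 and 34.1 against 0, 11.9 and 0.571. MCM3 had 1159 fragments in shNC replicate 1 and 3 in shNC replicate 2. MCM5 leaned the other way, with at most 2.28 in shNC and 15, 24.6 and 0.114 under the shNAT10 label.

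**Figure D2:**
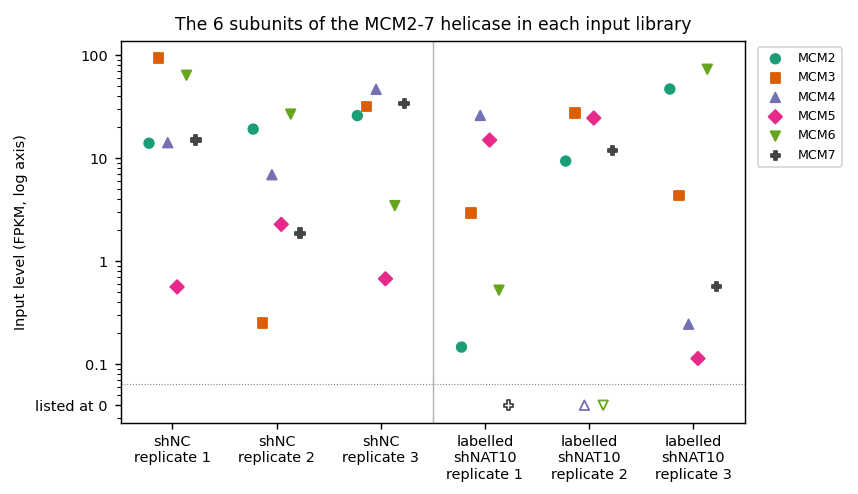
Input level (FPKM, log axis) of the 6 MCM2-7 subunits in each of the 6 input libraries, with values listed at 0 as open symbols at the bottom. The subunits span from 0.564 to 93.9 in shNC replicate 1, and which subunit is highest or lowest changes from library to library.

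CDC6, the ATPase that recruits CDT1 and the helicase to origins, was the 1 tested member whose groups did not overlap. It was nearly absent from shNC, at FPKM 0.115, 0.0595 and 0.0570 from 2, 1 and 1 fragments. Under the shNAT10 label it had 0.984, 29.98 and 0.815, from 7, 230 and 5 fragments. It passed the filter through these libraries alone, so its higher mean there followed from passing it. Replicate 2 stood far above the others, and the log2 difference of 2.16 (SE 1.68, 95% interval -1.16 to 5.48) did not pass (limma adjusted p = 0.754). Groups did not overlap for 1 of 32 tested members (3.12%) and for 9.61% of all tested genes (6.72% lower and 2.89% higher under the shNAT10 label). CDT1, the loader that geminin restrains, had 12.3, 1.00 and 26.9 against 7.98, 9.20 and 0.250. ORC1, the largest ORC subunit, had 4.49, 0.289 and 0 against 0, 0 and 3.70. Both genes had overlapping groups.

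Of the 6 helicase activation genes, 4 were abundant enough to test and had lower means in the libraries labelled shNAT10, none past the test. CDC45 and GINS4 passed the filter through shNC alone, so their lower means followed from passing it. CDC45, a subunit of the active helicase and the most abundant here, had FPKM 0, 38.7 and 0.103 in shNC, and no library labelled shNAT10 listed it above 0. Its level rested on shNC replicate 2 alone, with 362 fragments there and 1 in all other libraries together. GINS4, a subunit of the GINS complex, likewise had 0.108, 6.39 and 0 in shNC, with 0 throughout the shNAT10 label. GINS2 had 0, 4.76 and 25.8 against 2.65, 0.409 and 0. GINS1 had 153 fragments in shNC replicate 3 and 40 in shNAT10 replicate 2, and was at 0 elsewhere. GINS3 and the helicase activator MCM10 lay below the filter, with at most 3 and 6 fragments in a library. The mean FPKM of GINS3 was 0.0958 in shNC and 0.164 under the shNAT10 label, and that of MCM10 was 0.112 and 0.0408.

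Among the polymerases and primase, POLD1, the catalytic subunit of the lagging-strand polymerase delta, was the most abundant. Its FPKM was 37.5, 63.5 and 7.09 in shNC against 15.7, 13.7 and 0.172 under the shNAT10 label, which placed replicates 1 and 2 within the range of the controls and replicate 3 below it. Its log2 difference was -2.04 (SE 1.71, limma adjusted p = 0.754). POLE, the catalytic subunit of the leading-strand polymerase epsilon, was low and comparatively even, at 1.98, 0.623 and 2.18 against 0.607, 2.97 and 1.51 (log2 difference 0.02, SE 1.74, 95% interval -3.42 to 3.46). PRIM1, the primase subunit that makes RNA primers, had the lowest unadjusted p of all members. It stood at 34.7, 0 and 20.4 in shNC, and no library labelled shNAT10 listed it above 0 (unadjusted p = 0.0851, limma adjusted p = 0.754). Because shNC replicate 2 was also at 0, the groups touched. POLA1, the polymerase that extends the primers, had 4.90, 9.13 and 0 against 12.5, 0 and 0.

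PCNA, the sliding clamp, was among the most abundant members and among the least even. Its FPKM was 3.82, 67.1 and 77.0 in shNC against 0, 0 and 159 under the shNAT10 label, from 19, 324 and 388 against 0, 0 and 280 fragments. The single highest value and the only zeros thus fell in the same group, and the log2 difference of -2.44 (SE 1.75) did not pass (limma adjusted p = 0.754). The clamp loader RFC, which opens PCNA onto DNA, was low in every library but 1. RFC4 had 89.3 in shNAT10 replicate 2 and at most 2.95 in the others. RFC1, RFC2, RFC3 and RFC5 lay below the filter. RFC3 was listed at 0 in all 6 libraries. RFC1 (0.308, 1.495 and 3.47 against 0, 0 and 0.248) and RFC5 (0.273, 0.0937 and 0.0898 against 0 in all 3) had groups that did not overlap, at 1 to 80 fragments where above 0. Without a filter, such genes made up 7.45% of all 15014 genes above 0, and 3 of the 37 members above 0.

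FEN1, the flap endonuclease, and LIG1, the ligase that seals nicks between Okazaki fragments, were uneven between replicates. LIG1 reached FPKM 34.1, 1.81 and 0 in shNC against 3.06, 0.913 and 0.508 under the shNAT10 label. FEN1 had 4.29, 0 and 13.4 against 41.2, 0 and 0, from 18, 0 and 57 against 71, 0 and 0 fragments. Their groups overlapped.

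The 3 subunits of RPA form one complex and were not abundant together in any library. RPA1, the large DNA-binding subunit, had FPKM 3.18, 2.05 and 2.02 in shNC, close together, against 1.05, 76.3 and 8.97 under the shNAT10 label. Replicate 2, with 628 fragments, was far above the rest, while replicate 1 was below every control (log2 difference 1.79, SE 1.85, limma adjusted p = 0.754). RPA2 had no fragment in shNC and 0.356, 38.7 and 0 under the shNAT10 label. RPA3, the small subunit, ran the other way, at 0, 19.4 and 41.4 against 1.11, 0 and 1.03, and had the largest difference of the complex at -2.55 (SE 1.89, limma adjusted p = 0.754).

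TYMS, which makes the thymidylate used for DNA and is the target of the colorectal cancer drug fluorouracil, was the most abundant of the nucleotide supply genes. Its FPKM was 27.9, 24.3 and 59.8 in shNC against 72.5, 23.5 and 121 under the shNAT10 label. Replicates 1 and 3 of the latter were above the controls and replicate 2 was just below them, for a log2 difference of 0.77 (SE 1.34, 95% interval -1.88 to 3.42, limma adjusted p = 0.839). Both subunits of ribonucleotide reductase, RRM1 and RRM2, are needed to make deoxynucleotides. RRM1 had 0.354, 32.0 and 3.49 against 15.3, 9.59 and 36.2. RRM2, whose transcript and protein peak in S phase, had 0.944, 10.9 and 6.80 against 0.946, 0.251 and 0.470. RRM1 was thus above RRM2 in 4 of the 6 libraries, all but shNC replicates 1 and 3, and the means of the pair leaned in opposite directions without passing (log2 differences 1.67 and -1.89, SE 1.76 and 1.83, limma adjusted p = 0.754 for each). TK1, the salvage thymidine kinase, had 52.7 in shNAT10 replicate 2 and at most 0.314 elsewhere.

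Of the 3 G1/S regulators 2 were tested, and neither passed. CCNE1, cyclin E1, was listed at 0 in all 6 libraries. CCNE2, cyclin E2, had FPKM 0.202, 9.90 and 12.01 in shNC against 0, 95.3 and 0.759 under the shNAT10 label, so the highest and the lowest value lay in one group. Transcript for E2F1, whose promoter above holds 2 E2F words, had 1 fragment in shNC (replicate 2) and 21 in shNAT10 replicate 1 (FPKM 6.04). SLBP, which binds the stem-loop of histone mRNAs, was present in every shNC library at 20.3, 19.8 and 59.8, and had 10.7, 38.2 and 0 in the others (log2 difference -1.96, SE 1.68, limma adjusted p = 0.754). UHRF1, which brings the maintenance methyltransferase to new DNA, had 66.9 in shNC replicate 1 and at most 10.4 elsewhere.

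Across all 32 tested members, 0 passed limma's test at an adjusted p under 0.05 and 0 had an unadjusted p under 0.05, against 0.19% (0.0856% higher, 0.105% lower) and 3.7% of the 10517 genes tested. Voom on recovered fragments also called 0 members. The lowest adjusted p was 0.754. The members' log2 differences had SEs of 1.19 to 1.90 (median 1.78, beside 1.70 for all tested genes). Directions by role are those of the mean log2(FPKM + 1). Lower under the shNAT10 label were 7 of 9 licensing genes, 4 of 4 helicase activation genes, 3 of 4 polymerase and primase genes and 1 of 2 clamp and loader genes. So were 2 of 2 flap and ligation genes and 2 of 2 S-phase chromatin and histone mRNA genes. Higher were 2 of 3 single-strand binding genes, 3 of 4 nucleotide supply genes and 1 of 2 G1/S regulators. In all, 22 of 32 (68.8%) were lower, as were 58.8% of all tested genes. By mean FPKM, PCNA, FEN1 and CCNE2 of these 22 lay the other way (shNC 49.3, 5.91 and 7.37 against 53.0, 13.8 and 32.0). The members' median log2 difference was -0.90, beside -0.49 for all tested genes. The gap between these medians was -0.41 with 6 libraries. It stayed negative, at -0.93 to -0.22, when any of 5 libraries was left out in turn, and turned to 0.22 without the remaining one, shNAT10 replicate 3. These tallies and medians describe the genes past the filter and carry no test. CDC45, GINS4 and PRIM1 passed it through shNC alone, and RPA2 through the libraries labelled shNAT10 alone. CDC6, TK1 and E2F1 had a mean FPKM under 1 in shNC (0.0773, 0.158 and 0.0405). RPA3 and RRM2 had one under the shNAT10 label (0.716 and 0.556). These genes, too, passed only through the group where they were high. The direction of all the genes named here was thus set, or nearly so, by passing the filter.

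**Figure D3:**
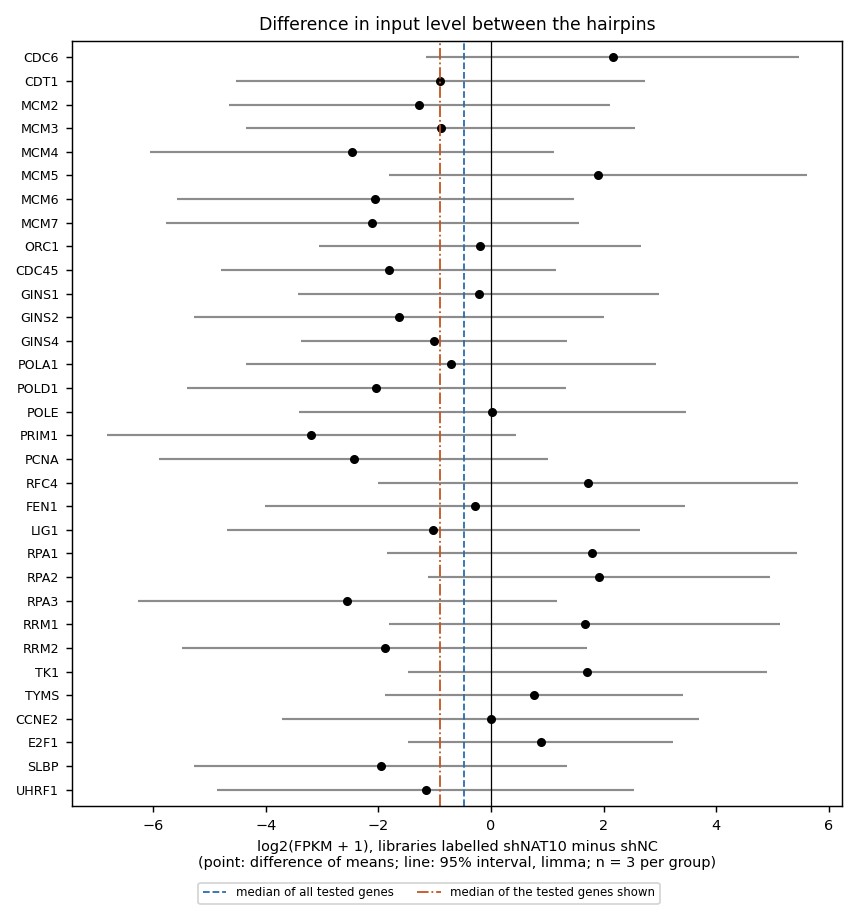
Difference in mean log2(FPKM + 1), libraries labelled shNAT10 minus shNC, for the 32 tested genes in order of role, with 95% limma intervals (n = 3 per group). The 32 intervals cross 0. The dashed line marks the median of all tested genes (-0.49) and the dash-dotted line that of the genes shown (-0.90).

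A wider list of 62 replication and G1/S genes outside the 39 gave the same count. Of these, 45 were tested and 0 passed limma's test, while 2 had an unadjusted p under 0.05. Voom on recovered fragments called 1 of the 45, beside 0.903% of all tested genes. TOP1, the topoisomerase ahead of the fork, had 93.9, 24.1 and 60.8 against 0.192, 1.25 and 19.9, with groups that did not overlap (log2 difference -3.79, SE 1.69, unadjusted p = 0.0262, limma adjusted p = 0.754). CDKN1B, which encodes the kinase inhibitor p27, had 1.26, 0.650 and 0.208 against 21.3, 88.6 and 0.594, where replicate 3 lay among the controls. Groups did not overlap for 8 of the 45 (17.8%), 7 of them lower in the libraries labelled shNAT10, beside 9.61% of all tested genes. The median log2 difference of the 45 was -0.55.

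The authors' deposited table of differential ac4C peaks held 15 peaks in 12 of the 39 genes. In the authors' deposited table a peak has a fold enrichment, an annotated class and the log2 fold change of a test between the hairpins, with the sign as deposited. The table did not say which hairpin was the numerator or whether replicates were pooled, so no direction is drawn from the sign. Peak positions are in GRCh38, and 15 of 15 lay within the RefSeq gene of their symbol. All 12 genes were among the 32 tested, so 37.5% of tested members had a deposited peak, beside 19.0% of 8140 tested protein-coding genes and 22.2% of the tested wider list. Among genes of mean FPKM of at least 5 it was 10 of 25 members (40.0%) and 23.1% of coding genes. The median of mean FPKM was 9.71 in tested members, 6.59 in tested coding genes and 9.86 in those with a peak. The part of RNA level in the share of members with a peak was not tested otherwise.

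Coding sequence held 12 of the 15 deposited peaks (80.0%, beside 59.5% of the 2364 peaks of the authors' deposited table), and 11 of 15 (73.3%) were joined over 2 or more exon blocks, beside 50.6%. The log2 change of the authors' deposited table was negative for 11 of the 15 (73.3%, beside 61.7% of all peaks), with absolute values from 4.34 to 10.5. The authors also counted sites of a repeated motif, a cytidine followed by any pair of bases, repeated (called CXX sites below). At least 1 such site was given for 8 of the 15 peaks (53.3%) in the authors' deposited table, beside 62.6% of all its peaks. Of the 11 negative peaks 7 had a site, as had 1 of the 4 positive ones. None of these shares was tested.

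Licensing genes carried 5 of the deposited peaks, 1 each. In the authors' deposited table MCM7 had a 269-nt peak annotated as 5′ UTR at chr7:100099262-100099530, minus strand, with a low fold of 1.94, a log2 change of -4.34 and the smallest differential FDR of the 15, 7.94e-64. The deposited peak of MCM2 (chr3:127608499-127608994, plus strand, 2 blocks of coding sequence, 1 CXX site) had a fold of 1.83 and a log2 change of -6.07. That of CDT1 (chr16:88806029-88806148, plus strand, 2 CXX sites) had the lowest fold, 1.44, and a log2 change of -5.21. The deposited MCM3 peak (chr6:52264697-52265324, minus strand) lay near the end of the gene, 95.2% along it, and had the opposite sign, 6.04, with a fold of 22.0. CDC6 stood apart, since its 510 nt in 3 coding blocks (chr17:40291199-40293622, plus strand) made the longest peak of the 15. The authors' deposited table gave CDC6 a fold of 46.1 and a log2 change of -6.08. The inputs held 2, 1 and 1 fragments of CDC6 in shNC and 7, 230 and 5 under the shNAT10 label. Which inputs the fold rests on is not stated.

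PCNA and POLD1 had a pair of deposited peaks each, with negative changes throughout. In the authors' deposited table the PCNA peaks, at chr20:5117583-5119683 and chr20:5115276-5117495 on the minus strand, covered 354 and 237 nt of coding exons with log2 changes of -5.49 and -4.56. The first of these had the smallest peak-calling p among the 15, 1.6e-65, and 2 CXX sites. The deposited POLD1 peaks, at chr19:50398901-50401810 and chr19:50407349-50408849 on the plus strand, had 3 CXX sites each, the most of the 15, with folds of 6.29 and 4.80 and log2 changes of -5.38 and -4.86. POLE had the largest change by size, 10.5, and the opposite sign to POLD1. That POLE peak of the authors' deposited table joined 2 coding blocks at the start of the gene (chr12:132681181-132687305, minus strand) with a fold of 1.74.

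TYMS was the 1 member with deposited peaks of both signs. In the authors' deposited table the peak at chr18:662254-669271 (plus strand, 3 coding blocks, 1 CXX site) had a log2 change of -4.89 and a fold of 2.07. The peak at chr18:672894-673072, 96.3% along the gene, had a log2 change of 6.25, a fold of 37.7 and no CXX site. RRM1 had the highest fold of the 15, 77.5, in a peak annotated as 3′ UTR (chr11:4135176-4138279, plus strand, log2 change -6.09 in the authors' deposited table). RPA1 had a 180-nt coding peak (chr17:1879698-1883840, plus strand, log2 change -5.29, peak-calling p = 0.0076, the weakest of the 15 in the authors' deposited table). GINS4 had a 3′ UTR peak with a positive change of 4.58 and the largest differential FDR, 0.0468, in the authors' deposited table, and its input FPKM was 0 throughout the shNAT10 label and in shNC replicate 3. The clamp loader, flap and ligation, G1/S regulator and S-phase chromatin genes had no deposited peak.

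**Figure D4:**
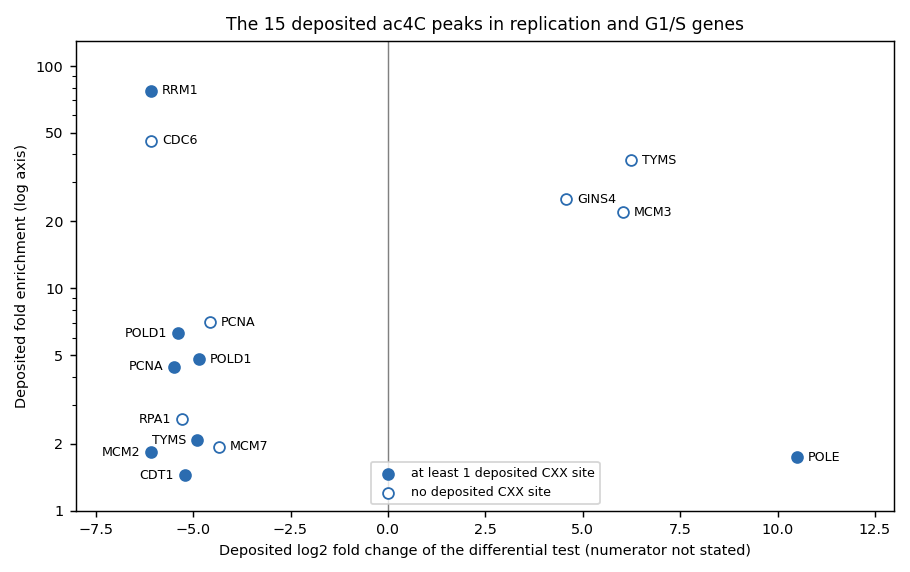
The 15 deposited ac4C peaks in the 39 genes, by the authors' log2 fold change (numerator not stated) and fold enrichment (log axis), filled where the authors counted at least 1 CXX site. The 11 negative peaks lie between -6.09 and -4.34, and the 4 positive ones are in GINS4, MCM3, TYMS and POLE.

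In the wider list, 13 deposited peaks lay in 11 genes, and 5 of the 13 had a negative log2 change (38.5%). The TOP1 peak of the authors' deposited table lay in coding sequence with a log2 change of 9.45. CDKN1B had a pair of 3′ UTR peaks (4.02 and 6.17), and MYBL2, a transcription factor of proliferating cells, had a pair in coding sequence with opposite signs (-7.16 and 0.797) in the authors' deposited table. CDK2, the kinase that cyclin E activates, had a peak with 3 CXX sites and a deposited log2 change of -5.76. The deposited change was -3.54 for CDK6 and -1.55 for TIMELESS, and 7.44 for TICRR, a factor of origin firing.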

How the data were processed

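The deposited gene table gave FPKM for 6 input libraries, per the file name and values. Columns named NC with a number matched shNC titles, and those named sh were taken as shNAT10 by elimination (0 columns stayed unmapped). The precipitated libraries were not analysed here per library. The authors' deposited peak table gave a p-value, a fold enrichment, a log2 fold change, log10 scores and motif numbers per peak. Per the submitters' processing notes, cutadapt 2.5, HISAT2 2.1.0 and HOMER 4.10.4 were used, and GRCh38 and GRCm38 were named. Which tool counted fragments, called peaks or ran the differential test is not given in the sources used here.

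Fragment numbers were recovered by finding, for each library, the scale at which 13 mitochondrial mRNAs of known length had whole fragments. For each gene the smallest length that made its values whole was then taken. A true number can be a whole multiple. Of 112 small RNAs with a RefSeq length, which set no scale, 70 had whole fragments at that length (tolerance 0.001). Why the others did not was not tested. The authors' FPKM denominator was 0.979 to 1.27 times the sum of fragments. PCR copies were not marked.

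The inputs went into limma 3.58.1 (R 4.3.3, lmFit, eBayes with trend) as log2(FPKM + 1). Genes averaging under FPKM 1 were left out, with Benjamini-Hochberg adjustment over all tested genes at 0.05. Fold changes of low genes are understated on this scale, and SEs lean on genes of like level (212.6 prior degrees of freedom). Scripts were tested on simulated data. For limma these had a smaller spread between replicates than the real libraries, so that check covers the code and not the power here. Peak starts are printed counting from 1. Members, gene lists and tests were chosen with earlier results of these data known. Named genes were NAT10, members with a peak, with groups that did not overlap, or at 0 throughout, and per role the most abundant member and that of largest difference. For the wider list they were up to 8 genes with an unadjusted p under 0.05 or a peak. Other genes were given by range or to account for each member. Some items that the rule names are not reported here.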

Additional observations from a re-analysis of the deposited data

How the results depend on the processing

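No member passed under any of the 18 alternatives, and their median log2 difference stayed below 0 (-1.71 with a pseudocount of 0.01 to -0.24 after quantile normalization; -1.33 to -0.56 with a replicate left out). Over all genes, the number past limma's test was 20. It was 7 with a pseudocount of 0.01, 0 without a filter (340 at an unadjusted p under 0.05), 10 at a mean FPKM of at least 5, 0 without trend (480), 95 by voom, 0 without shNAT10 replicates 2 and 3, an alternative chosen after seeing the data (1139), and 1 to 34 with a replicate left out (1 without each shNC replicate, 12 and 34 without shNAT10 replicates 1 and 2). Voom called 1 gene of the wider list. Members whose groups did not overlap numbered 1 (3.1%, beside 9.6% of all tested genes), and 3 without a filter (8.1% beside 7.4%), 3 on the TPM scale (8.8% beside 9.4%), 4 after quantile normalization (12.5% beside 9.1%), 14 without shNAT10 replicates 2 and 3 (45.2% beside 44.1%), and 3 to 7 with a replicate left out (9.4% to 22.6% beside 17.0% to 18.9%). Of the 12 members with a deposited peak, 10 had one at an FDR under 0.01, 12 at an absolute log2 change of at least 2, and overlap with RefSeq genes gave 13 by adding ORC1.

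The NAT10 difference reversed to -0.23 with a pseudocount of 0.01 and to -1.81 without shNAT10 replicates 2 and 3. Of 31 other named genes with a fitted difference, 19 kept their sign throughout. Reversed without shNAT10 replicates 2 and 3 were POLE (-0.63), RPA1 (-0.72), MCM4 (0.60), FEN1 (3.32) and MYBL2 (0.29). Other settings reversed LIG1 (0.42, pseudocount 0.01), POLE (-0.18 on the TPM scale, -0.20 by voom), FEN1 (0.04), CCNE2 (0.46) and TIMELESS (0.07) after quantile normalization, and CCNE2 (0.03) with median ratio scaling. With a replicate left out, ranges crossed 0 for MCM2 (-2.54 to 0.15), MCM3 (-2.72 to 0.40), CDT1 (-1.99 to 0.08), LIG1 (-2.13 to 0.44), POLE (-0.31 to 0.35), FEN1 (-2.08 to 0.62), CCNE2 (-2.06 to 1.23), TIMELESS (-2.31 to 0.31) and CDK2 (-1.0 to 2.37). The cause was not tested.

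Pairing by replicate number was not borne out: libraries of one number had deviations correlated at 0.00, -0.02 and 0.01. Log2 values of replicates of one group correlated at 0.38 to 0.41, and those of libraries from different groups at 0.37 to 0.40. Replicates were thus hardly more alike than libraries of different hairpins. With the replicate block 21 genes and 0 members passed. With 3 libraries a group and a median SE of 1.78 (log2), the absence of calls does not show that members were alike, and fragments on genes differed between the hairpins.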
